A study of Mus musculus with 15 samples.

Results

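The enzymes described here are 8 genes that move one-carbon units on folate: Shmt1, Mthfd1, Mthfs, Aldh1l1 and Ftcd, grouped as the cytosolic arm, and Shmt2, Mthfd2 and Mthfd1l, the mitochondrial arm. They were chosen by gene symbol from the 23420 genes of the count files, and all 8 were found and tested. The RNA was extracted from the pulverized left lobe of the liver. All mice were males of the inbred strain C57Bl/6J, and the labels give no age. The BD group was fed a base diet with 4% fat, the HFD group a diet with 31% fat, and the MCD group a diet with the same 31% fat that was deficient in methionine, choline and folate. All 3 groups had received the vehicle, which the labels spell Alkmauls El-620 (5% in saline), 24 h before, and tetrachloroethylene-treated mice are not analysed here. Each diet had 5 libraries of polyA RNA. MCD differed from HFD in several nutrients at once, so the part of folate cannot be told apart from that of methionine or choline.

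Folate carries single carbons between amino acids and the reactions that build purines and thymidylate and that remethylate homocysteine to methionine. Serine gives up a carbon to tetrahydrofolate in the cytosol through SHMT1 and in mitochondria through SHMT2, and the mitochondrial enzymes MTHFD2 and MTHFD1L pass that carbon on to formate, which MTHFD1 takes up again in the cytosol. Liver is also the main site where one-carbon units are removed as carbon dioxide, by ALDH1L1, and where FTCD feeds carbons from histidine breakdown into the pool.

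The libraries held 3704642 to 23131089 counts in genes (median 10312311), so 3 counts were worth 0.130 to 0.810 CPM, the count relative to the library's total. The summed CPM of 7 hepatocyte markers, Alb and Apoa1 among them, was 125733 to 145636 in BD, 112811 to 135895 in HFD and 114955 to 157620 in MCD, with no marker at 0. Most of that sum was Alb, which was not called, and 2 of the 7 were called lower and 0 higher in each comparison with BD. These were Cps1 (log2 change -1.18 in HFD and -1.56 in MCD), Ass1 in HFD (-2.02) and Serpina1c in MCD (-0.61), and whether they and the folate genes moved for a shared reason was not tested. Markers of some other liver cells moved with diet. Against BD, 4 of 11 macrophage markers were called higher in HFD and 11 of 11 in MCD. In MCD 9 of 10 stellate and matrix markers and 3 of 6 endothelial markers were also called higher, and in HFD 0 of either list. Of 4 cholangiocyte markers tested, 0 were called higher and 1 lower in HFD, and 1 higher and 1 lower in MCD. Of 2 T and B cell markers tested, 0 were called in HFD and 1 was called lower in MCD. Over all tested genes 3.65% were called higher and 3.27% lower in HFD, and 12.8% and 8.64% in MCD. Whether the 5 libraries of a diet are 5 animals is not stated in the labels, and the p-values speak only of the spread among libraries. In their titles the BD libraries carry sample numbers well apart from those of the other diets, and no label names a batch, so a batch that runs with those numbers and the step from BD to the other diets cannot be told apart.

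Of the 8 genes, Aldh1l1, Mthfd1 and Ftcd were lower in HFD than in BD, and these 3 and Shmt1 were lower in MCD than in BD. Mthfd2 and Mthfd1l, both scarce in this liver, were higher in MCD than in BD. A gene was called when edgeR's quasi-likelihood test gave a Benjamini-Hochberg adjusted p under 0.05 over all 12193 genes tested. Against BD, 0 members were called higher and 3 lower in HFD, where 3.65% and 3.27% of all tested genes were called higher and lower (6.92% in all). In MCD 2 members were called higher and 4 lower against BD, where 12.8% and 8.64% of all tested genes were (21.4% in all). Between MCD and HFD only Shmt1 was called, lower in MCD, where 2.22% of genes were called higher and 0.927% lower (3.15% in all). Counted by overlap alone, the libraries of 3 members lay wholly below BD in HFD, as did 3.56% of all tested genes (3.49% lay wholly above). In MCD 4 members lay wholly below and 2 wholly above BD, against 6.07% and 9.32% of all tested genes. Of the 2 higher in MCD, Mthfd1l passed the filter on low counts in 0 BD libraries. Neither its call nor its place above BD is therefore independent support. Between MCD and HFD 0 members were free of overlap, against 1.83% of genes wholly lower and 2.49% wholly higher in MCD. Both comparisons with BD share the same 5 BD libraries, so they are not independent of each other.

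The 250 bases before the RefSeq start of transcription are shown for 2 members that were lower on both fat-rich diets and for the 2 scarce members that were higher in MCD, so that the genes that moved in opposite directions can be read side by side. They are from GRCm38.p6, 5′ to 3′ on the gene's own strand, with each CG dinucleotide in capitals.
Aldh1l1, chr6:90550543-90550792, plus strand: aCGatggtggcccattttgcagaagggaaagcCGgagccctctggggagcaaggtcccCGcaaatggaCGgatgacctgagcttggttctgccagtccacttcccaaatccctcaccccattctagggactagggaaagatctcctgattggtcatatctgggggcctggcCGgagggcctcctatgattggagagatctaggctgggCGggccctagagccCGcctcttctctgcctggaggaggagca
Mthfd1, chr12:76254982-76255231, plus strand: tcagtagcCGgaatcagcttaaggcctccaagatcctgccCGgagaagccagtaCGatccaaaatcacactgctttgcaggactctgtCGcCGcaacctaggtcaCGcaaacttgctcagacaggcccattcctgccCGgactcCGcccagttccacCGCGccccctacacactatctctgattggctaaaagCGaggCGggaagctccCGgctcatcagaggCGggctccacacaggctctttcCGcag
Mthfd2, chr6:83317605-83317854, minus strand: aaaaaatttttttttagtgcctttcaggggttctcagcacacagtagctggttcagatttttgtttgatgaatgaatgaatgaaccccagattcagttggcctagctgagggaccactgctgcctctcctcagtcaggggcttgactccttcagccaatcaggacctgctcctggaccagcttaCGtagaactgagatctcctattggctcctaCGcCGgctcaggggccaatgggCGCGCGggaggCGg
Mthfd1l, chr10:3972825-3973074, plus strand: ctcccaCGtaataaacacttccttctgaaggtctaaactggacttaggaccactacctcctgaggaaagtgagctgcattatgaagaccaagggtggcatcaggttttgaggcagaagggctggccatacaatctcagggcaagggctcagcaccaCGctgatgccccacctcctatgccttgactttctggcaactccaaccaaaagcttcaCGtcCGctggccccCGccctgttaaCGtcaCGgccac
The Mthfd1 window held 15 CG dinucleotides and the windows of Aldh1l1, Mthfd2 and Mthfd1l held 7 each, against a median of 6 (quartiles 2 and 16) over 32851 RefSeq promoter windows. All 8 members matched this table, with 9 windows. In the full windows of 300 bases, which also hold 50 bases after the start, neither TGATGNAA, letters shared by elements that ATF4 binds, nor CACGTG, the E-box, was found on either strand in any of the 9. Of all windows 3.97% held TGATGNAA and 7.15% held CACGTG. The GENCODE M21 models of Aldh1l1 and Mthfd2 reach further upstream than these RefSeq starts, so these windows are not the only starts annotated.

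**Figure D1:**
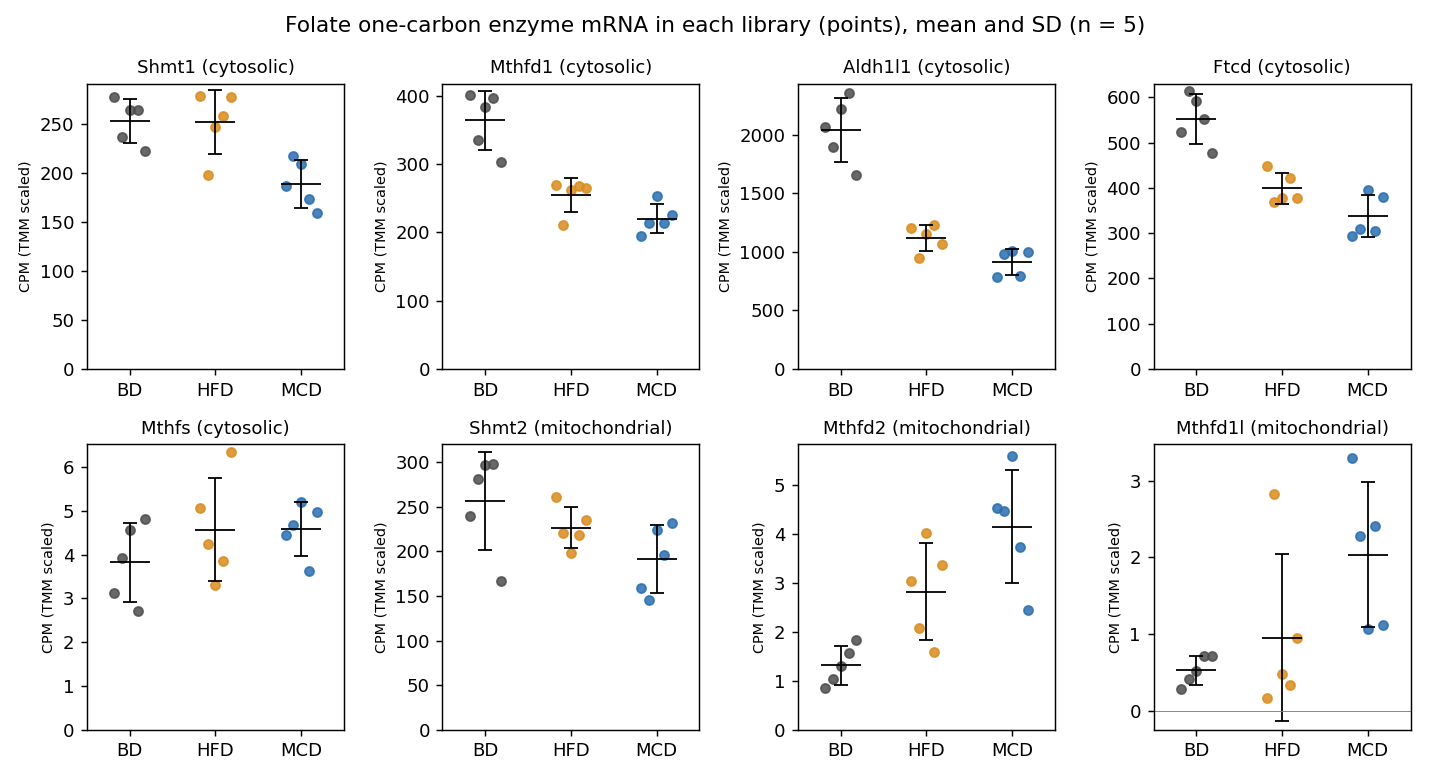
Expression of the 8 genes in each library (CPM scaled by TMM factors, points) with the mean and SD of the 5 libraries of each diet. Aldh1l1 lies between 1658 and 2358 CPM in BD and at 786 to 1227 CPM in the HFD and MCD libraries, while Mthfd2 is at most 1.84 CPM in BD and at least 2.44 CPM in MCD.

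Per length, the order of levels in BD ran from Aldh1l1 (488 CPM per kb of exon) through Ftcd (285), Shmt2 (111), Mthfd1 (107), Shmt1 (88.6), Mthfs (2.78) and Mthfd2 (0.58) to Mthfd1l (0.12). On this scale the BD ranges of Shmt2 and Mthfd1 overlapped, as did those of Mthfd1 and Shmt1, and every other pair of neighbours was apart. In MCD the order was Aldh1l1 (218 CPM per kb), Ftcd (174), Shmt2 (83.0), Shmt1 (66.3), Mthfd1 (64.8), Mthfs (3.33), Mthfd2 (1.82) and Mthfd1l (0.48). The ranges of Aldh1l1 and Ftcd, apart in BD, overlapped in HFD and in MCD. Thus 5 genes were abundant and the remaining 3, which include Mthfd2 and Mthfd1l, the members that follow Shmt2 in mitochondria, were scarce on every diet.

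Aldh1l1 encodes formyl-tetrahydrofolate dehydrogenase, which releases the carbon of formyl-tetrahydrofolate as carbon dioxide and returns free tetrahydrofolate. The gene lies at chromosome 6, 90486427 to 90600203 (GRCm38, plus strand, GENCODE M21), and was the most abundant member. Its CPM in BD libraries 1 to 5 was 2063, 1895, 2221, 2358 and 1658. In HFD it was 1201, 950, 1151, 1227 and 1065, and in MCD 786, 978, 1004, 790 and 997. Every HFD and MCD library lay below every BD library, and HFD and MCD overlapped. The mean fell from 2039 ± 275 (SD, n = 5) in BD to 1119 ± 113 in HFD, a log2 change of -0.87 ± 0.11 (SE, edgeR adjusted p = 8.10e-05). In MCD it was 911 ± 113, a log2 change of -1.16 ± 0.11 against BD (edgeR adjusted p = 3.21e-06). These are decreases of 45.1% and 55.3%. MCD was below HFD by a log2 difference of -0.30 (95% interval -0.53 to -0.060, edgeR adjusted p = 0.148), which did not pass the threshold. Because tissue RNA was measured, fewer cells that express a gene and less RNA per cell cannot be told apart here or for the genes that follow.

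Mthfd1 encodes the trifunctional cytosolic enzyme that takes up formate and interconverts formyl-, methenyl- and methylene-tetrahydrofolate (chromosome 12, 76255298 to 76319803, plus strand). The BD libraries 1 to 5 had 401, 336, 383, 397 and 302 CPM. The HFD libraries had 270, 211, 262, 268 and 264 CPM, and the MCD libraries 195, 214, 253, 214 and 225 CPM. All 10 libraries of the fat-rich diets lay below the lowest BD library. Against the BD mean of 364 ± 43.1 CPM, the HFD mean of 255 ± 25.1 was lower by a log2 change of -0.51 ± 0.10 (edgeR adjusted p = 0.00396). The MCD mean of 220 ± 21.2 CPM was lower by -0.73 ± 0.10 (edgeR adjusted p = 9.29e-05). The difference between MCD and HFD was -0.21 (95% interval -0.43 to 0.00067, edgeR adjusted p = 0.253) and did not pass.

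Ftcd encodes a bifunctional enzyme that transfers the formimino group of histidine breakdown to tetrahydrofolate (chromosome 10, 76575648 to 76590338, plus strand). Its BD values were 523, 614, 593, 551 and 477 CPM. Its HFD values were 448, 368, 378, 421 and 378 CPM, and its MCD values 295, 310, 394, 306 and 379 CPM. As with Aldh1l1 and Mthfd1, both fat-rich diets lay wholly below BD and overlapped with each other. The BD mean was 551 ± 54.8 CPM and the HFD mean 399 ± 34.3 CPM (log2 change -0.47 ± 0.10, edgeR adjusted p = 0.00869). In MCD the mean was 337 ± 46.5 CPM (log2 change -0.71 ± 0.10 against BD, edgeR adjusted p = 1.25e-04). MCD against HFD gave -0.24 (edgeR adjusted p = 0.192).

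Shmt1, the cytosolic serine hydroxymethyltransferase (chromosome 11, 60788104 to 60811718, minus strand), followed another pattern. Its BD libraries had 278, 237, 264, 264 and 223 CPM and its HFD libraries 279, 198, 247, 259 and 278 CPM. The MCD libraries had 187, 218, 210, 174 and 159 CPM. BD and HFD covered nearly the same range, while every MCD library lay below every BD library and below every HFD library except replicate 2. The means were 253 ± 22.3 CPM in BD, 252 ± 33.0 CPM in HFD and 189 ± 24.6 CPM in MCD. HFD against BD gave a log2 difference of -0.0051 with a 95% interval of -0.23 to 0.22 (edgeR adjusted p = 0.986), so a change larger than that interval was not seen. MCD was lower than BD by a log2 change of -0.42 ± 0.11 (edgeR adjusted p = 0.00990), and this call ended without TMM scaling (-0.28, edgeR adjusted p = 0.0518). MCD was lower than HFD by -0.41 ± 0.11 (edgeR adjusted p = 0.0450). That call was narrow: it was kept in 9 of 26 alternatives, and leaving out any 1 of BD replicates 1 to 4, HFD replicates 1, 3, 4 and 5 or MCD replicates 1, 4 and 5 ended it, with log2 changes of -0.47 to -0.35 over the 15 libraries left out. Shmt1 was the only member called between the 2 fat-rich diets, and Smcr8, a gene on the opposite strand, overlaps its end in the annotation.

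Mthfs, which returns the storage form folinic acid to the active pool, was scarce and is grouped here with the cytosolic arm (chromosome 9, 89210676 to 89377713, plus strand). Its levels were 3.12, 3.92, 4.57, 2.70 and 4.81 CPM in BD, 5.06, 4.25, 3.32, 3.86 and 6.34 CPM in HFD, and 4.44, 4.67, 5.20, 3.62 and 4.98 CPM in MCD. The 3 ranges overlapped. The log2 difference was 0.21 in HFD (95% interval -0.21 to 0.62, edgeR adjusted p = 0.629) and 0.20 in MCD (-0.20 to 0.61, edgeR adjusted p = 0.496) against BD. With 11 to 113 counts per library, a change of either sign within these intervals was not detectable.

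Shmt2 is the mitochondrial serine hydroxymethyltransferase, which starts the mitochondrial arm (chromosome 10, 127517123 to 127522444, minus strand). The BD libraries had 239, 281, 297, 298 and 167 CPM and the HFD libraries 261, 221, 198, 218 and 235 CPM. The MCD libraries had 159, 146, 224, 196 and 232 CPM, and the 3 diets overlapped, with BD replicate 5 far under the other BD libraries. The means were 256 ± 55.3 CPM in BD, 226 ± 23.2 CPM in HFD and 191 ± 38.2 CPM in MCD. In HFD the log2 difference from BD was -0.18 (95% interval -0.50 to 0.14, edgeR adjusted p = 0.580). In MCD it was -0.42 ± 0.15 (95% interval -0.74 to -0.10, edgeR adjusted p = 0.0583), just short of the threshold. It passed without BD replicate 5 (-0.55, edgeR adjusted p = 0.00576), without MCD replicate 5 (-0.48, edgeR adjusted p = 0.0491), in DESeq2 (adjusted p = 0.0485) and with the number of non-unique alignments per gene count as a covariate (-0.61, edgeR adjusted p = 0.00733). Shmt1 and Shmt2 thus had much the same log2 difference between MCD and BD, with a wider spread between libraries for Shmt2. The ratio of Shmt2 to Shmt1 CPM was 1.01 ± 0.191 in BD, 0.907 ± 0.124 in HFD and 1.04 ± 0.299 in MCD, and overlapped between all diets. Ndufa4l2, on the opposite strand, overlaps the end of Shmt2 in the annotation.

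Mthfd2 encodes the mitochondrial methylene-tetrahydrofolate dehydrogenase and cyclohydrolase, known for high levels in embryonic and dividing cells and low levels in most adult tissue (chromosome 6, 83305691 to 83325908, minus strand). Its BD libraries had 0.852, 1.03, 1.29, 1.56 and 1.84 CPM. The HFD libraries had 3.04, 2.08, 4.03, 1.59 and 3.37 CPM and the MCD libraries 4.52, 4.46, 5.59, 3.74 and 2.44 CPM. Every MCD library lay above every BD library, and in HFD only replicate 4 fell within the BD range. The mean rose from 1.32 ± 0.398 CPM in BD to 4.15 ± 1.16 in MCD, a fitted 2.98-fold change (log2 1.57 ± 0.28, edgeR adjusted p = 5.73e-04). This call was kept in all 26 alternatives run, with adjusted p of at most 0.00321. The HFD mean was 2.82 ± 0.983 CPM, a log2 difference from BD of 0.91 (95% interval 0.28 to 1.54, edgeR adjusted p = 0.0773), which did not pass. It passed without HFD replicate 4 (1.10, edgeR adjusted p = 0.0286) and in DESeq2 (adjusted p = 0.0444). MCD against HFD gave 0.66 (95% interval 0.12 to 1.21, edgeR adjusted p = 0.156). The evidence is 78 counts over the 5 BD libraries, 133 in HFD and 347 in MCD. Summed CPM of 8 markers of dividing cells, such as Mki67 and Top2a, was 24.9 to 31.8 in BD, 26.2 to 32.3 in HFD and 40.5 to 52.9 in MCD, with 6 of 7 tested called higher and 1 lower in MCD against BD. The part of dividing cells in the Mthfd2 values was not tested.

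Mthfd1l encodes the mitochondrial ligase that releases formate from formyl-tetrahydrofolate (chromosome 10, 3973118 to 4167081, plus strand). It was the scarcest member, with 0.284, 0.413, 0.517, 0.711 and 0.708 CPM in BD, 0.169, 2.83, 0.474, 0.338 and 0.944 CPM in HFD, and 3.30, 2.28, 1.06, 2.42 and 1.12 CPM in MCD. All MCD libraries lay above all BD libraries, and in HFD replicate 2 lay at the MCD level while the other 4 were near or within the BD range. The mean was 0.527 ± 0.186 CPM in BD and 2.04 ± 0.949 in MCD, a log2 change of 1.86 ± 0.57 (edgeR adjusted p = 0.0268, a fitted 3.62-fold change). The filter on low counts was passed only by the 5 MCD libraries and HFD replicate 2, and by 0 BD libraries, so a gene kept this way had to differ and its call is no independent support. The call ended without BD replicate 2 (1.76, edgeR adjusted p = 0.0640), BD replicate 3 (1.82, 0.0634), MCD replicate 1 (1.58, 0.0815) or MCD replicate 4 (1.80, 0.0546), and with the alignment covariate (1.21, 0.201). All BD libraries together held 31 Mthfd1l counts, against 48 in HFD and 178 in MCD, and 30 of the 48 were in HFD replicate 2.

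HFD replicate 2 set the HFD values of Mthfd1l. With it the HFD mean was 0.951 ± 1.09 CPM and the log2 difference from BD 0.70 (95% interval -0.68 to 2.08, edgeR adjusted p = 0.616). Without it the difference turned to -0.42 (edgeR adjusted p = 0.777). MCD was then above HFD by 2.30 (edgeR adjusted p = 0.00449) in place of 1.15 ± 0.52 (edgeR adjusted p = 0.229). Because only the MCD libraries and HFD replicate 2 had passed the filter on low counts, that call is no independent support. The same library had the lowest HFD level of Shmt1, Mthfd1, Aldh1l1 and Ftcd. Its sums over 3 marker lists were the highest of the HFD libraries: 570 CPM for stellate and matrix cells against 400 to 444 CPM in the other 4, 193 CPM for the cholangiocyte list against 58.8 to 85.4 CPM, and 612 CPM for macrophages against 408 to 560 CPM. The cholangiocyte sum was mostly 1 gene, Spp1 (mean 89.1 of 98.2 CPM in HFD), so it says little of the other cholangiocyte markers. In HFD replicate 2 the endothelial markers (269 CPM against 262 to 312) and the T and B cell markers (5.66 CPM against 4.39 to 7.35) lay within the range of the others. The markers of dividing cells were the lowest there (26.1 CPM against 26.8 to 32.3). The part of these markers in its Mthfd1l value was not tested. Without HFD replicate 2 the changes of Aldh1l1 (-0.81, edgeR adjusted p = 3.12e-04), Mthfd1 (-0.44, 0.0139) and Ftcd (-0.43, 0.0300) in HFD against BD were still called.

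**Figure D2:**
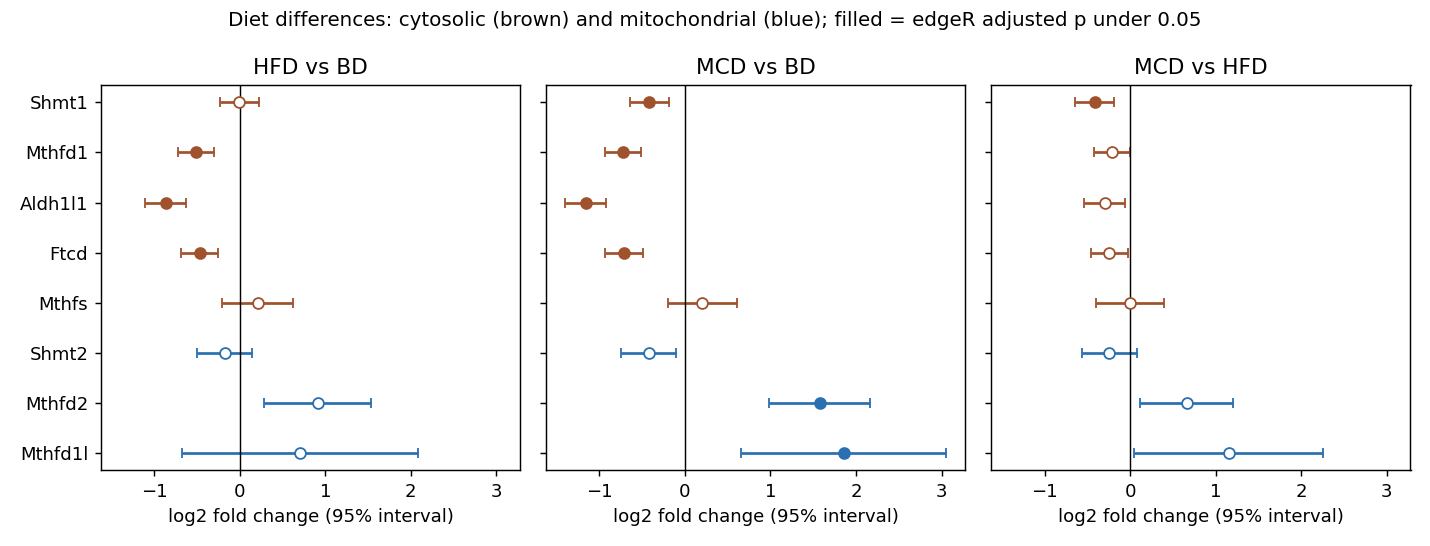
Log2 fold changes of the 8 genes with 95% intervals for HFD against BD, MCD against BD and MCD against HFD; filled points passed edgeR at adjusted p under 0.05. The abundant cytosolic genes Aldh1l1, Mthfd1 and Ftcd lie below 0 in both comparisons with BD (-0.87, -0.51 and -0.47 in HFD), and Mthfd2 and Mthfd1l lie above 0 with wide intervals.

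Grouped by arm, the cytosolic genes had 3 of 5 members called lower in HFD and 4 of 5 in MCD against BD, with 0 called higher. Their median log2 difference was -0.47 in HFD and -0.71 in MCD. The mitochondrial genes had 0 of 3 called in HFD and 2 of 3 called higher in MCD, with medians of 0.70 and 1.57. The HFD median of 0.70 is the value of Mthfd1l (95% interval -0.68 to 2.08), which was -0.42 without HFD replicate 2. Over all tested genes the medians were -0.0080 and -0.025. Of those genes 3.65% were called higher and 3.27% lower in HFD, and 12.8% and 8.64% in MCD. Among the cytosolic genes Mthfs lay above 0 without being called (0.21 in HFD and 0.20 in MCD), and Shmt1 was near 0 in HFD (-0.0051). Of the mitochondrial genes Shmt2 lay below 0 in both comparisons without being called. Mthfd1l entered the test only through libraries where it was high. Among the mitochondrial genes a rise in MCD that does not rest on that entry was therefore seen for Mthfd2 alone.

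The same comparison was made in each library by centring the log2 CPM of each gene on its BD mean and averaging over the genes of an arm. The cytosolic shift was -0.12 to 0.13 in BD, -0.52 to -0.18 in HFD and -0.71 to -0.36 in MCD, so both fat-rich diets lay wholly under BD. The mitochondrial shift was -0.38 to 0.30 in BD, -0.11 to 0.88 in HFD and 0.56 to 1.14 in MCD, and only MCD was clear of BD. The mitochondrial minus cytosolic shift averaged 0.69 ± 0.50 in HFD (range 0.18 to 1.40) and 1.46 ± 0.31 in MCD (1.06 to 1.81), against -0.38 to 0.31 in BD. MCD did not overlap BD in this difference, while HFD overlapped both. Without Mthfd1l, an alternative chosen after seeing the data, the difference averaged 0.74 ± 0.25 in HFD (0.34 to 1.01) and 1.11 ± 0.18 in MCD (0.87 to 1.28), against -0.28 to 0.26 in BD. HFD was then clear of BD too. The mitochondrial side of it was by then the mean of Mthfd2 and Shmt2. Every gene counts equally in this mean of log values, so the scarce genes weigh as much as the abundant ones.

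**Figure D3:**
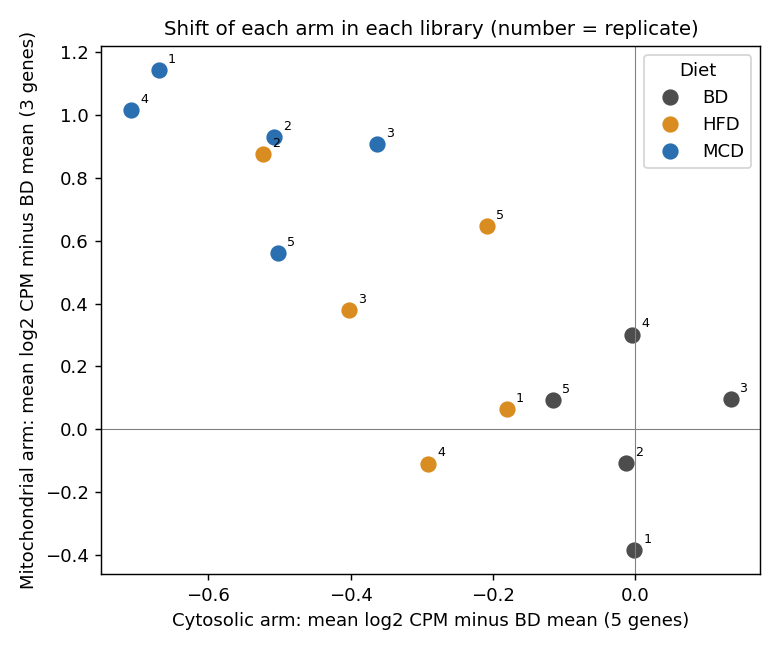
Mean log2 shift of the 5 cytosolic genes (horizontal) and the 3 mitochondrial genes (vertical) in each library, each gene centred on its BD mean; numbers are replicates. MCD libraries lie at the upper left, at 0.56 to 1.14 on the mitochondrial axis and -0.71 to -0.36 on the cytosolic axis.

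In abundance rather than log shift, the picture was set by the cytosolic arm. The CPM summed over the cytosolic genes was 3211 ± 358 in BD, 2030 ± 189 in HFD and 1662 ± 177 in MCD, and both fat-rich diets lay below BD. The mitochondrial sum, which is nearly all Shmt2, was 258 ± 55.1, 230 ± 23.0 and 198 ± 37.1 CPM, with overlap between all diets. The mitochondrial share of the summed member CPM was 7.38% ± 0.956 in BD, 10.2% ± 1.09 in HFD and 10.6% ± 1.55 in MCD. HFD did not overlap BD in this share and MCD did. The share of Aldh1l1 in the summed member CPM was 58.7% ± 1.64 in BD, 49.5% ± 1.63 in HFD and 48.9% ± 2.08 in MCD, with both fat-rich diets below BD. For each 1000 CPM of Mthfd1 there were 3.72 ± 1.48 CPM of Mthfd2 in BD, 11.04 ± 3.51 in HFD and 18.9 ± 5.00 in MCD, where the lowest MCD library (10.8) lay above the highest BD library (6.09).

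Within a diet some libraries were at the edge of the range for several members. BD replicate 5 had the lowest BD level of Shmt1, Mthfd1, Aldh1l1, Ftcd and Shmt2 and the highest of Mthfs and Mthfd2. MCD replicate 3 had the highest MCD level of Mthfd1, Mthfs, Aldh1l1, Ftcd and Mthfd2 and the lowest of Mthfd1l. HFD replicate 2 and MCD replicate 3 were also left out together, an alternative chosen after seeing the data. The calls against BD of the 4 cytosolic genes remained. Mthfd1 (-0.32, edgeR adjusted p = 0.0462), Shmt1 (-0.52, 0.00493) and Mthfd1l (2.47, 0.00152) were then called between MCD and HFD. HFD replicate 2 had the lowest HFD level of Mthfd1 and Shmt1 and the highest of Mthfd1l. Leaving out libraries at these edges widens the differences by the choice itself, so these calls between MCD and HFD are no independent support.

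The other genes of folate transport, storage, use and one-carbon supply were taken as a list of 26, of which 24 were tested. Against BD, 0 were called higher and 9 lower in HFD, and 1 was higher and 11 lower in MCD. The shares over all tested genes were 3.65% higher and 3.27% lower in HFD, and 12.8% and 8.64% in MCD. Their median log2 difference was -0.19 in HFD and -0.23 in MCD. The 9 genes lower in HFD were all lower in MCD too, in comparisons that share their BD libraries.

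In transport and storage, Folr2, a folate receptor also found on macrophages, was the only listed gene called higher in MCD (10.5 ± 2.503 to 17.4 ± 3.21 CPM, log2 change 0.72 ± 0.17, edgeR adjusted p = 0.00568). All 11 macrophage markers were called higher in the same comparison, and their part in the Folr2 value was not tested. Fpgs, which adds the glutamate tail that keeps folate in the cell, fell from 217 ± 30.4 CPM in BD to 112 ± 20.03 in MCD (log2 change -0.95 ± 0.14, edgeR adjusted p = 1.25e-04). In HFD Fpgs was 157 ± 28.6 CPM, and this call (-0.47, edgeR adjusted p = 0.0461) was kept in 11 of 26 alternatives and ended without HFD replicate 2 (-0.40, 0.138). It also ended without any 1 of BD replicates 1 to 4, HFD replicates 3 to 5 or MCD replicates 1, 4 and 5 (edgeR adjusted p of at most 0.117).

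Among genes that use folate, Gart, a purine synthesis enzyme that takes formyl-tetrahydrofolate, was lower in MCD by -0.30 ± 0.083 (edgeR adjusted p = 0.0133), a call that ended without TMM scaling (-0.16, 0.215) and in thinned counts (-0.23, 0.143). Tyms, Mtr, Mtrr, Atic, Mtfmt and Aldh1l2, the mitochondrial relative of Aldh1l1, were not called in either comparison with BD.

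Genes that make or break down glycine, sarcosine and dimethylglycine were mostly lower. Gnmt, which uses methyl groups of S-adenosylmethionine to make sarcosine, averaged 1777 ± 502 CPM in BD and was lower in HFD at 862 ± 80.3 CPM (log2 change -1.04 ± 0.20, edgeR adjusted p = 0.00337). In MCD Gnmt was 587 ± 164 CPM (-1.60 ± 0.20, edgeR adjusted p = 5.67e-05). The glycine cleavage genes Gldc and Amt fell by 0.50 and 0.44 on the log2 scale in HFD and by 0.74 and 0.64 in MCD, while their partners Gcsh and Dld were not called. Pipox, a peroxisomal sarcosine oxidase, changed by -0.47 in HFD and -0.70 in MCD, and the mitochondrial sarcosine dehydrogenase Sardh by -0.41 and -0.65. The Sardh call in HFD was kept in 12 of 26 alternatives and ended without any 1 of BD replicates 1 to 4, any HFD replicate or MCD replicates 3 and 4 (edgeR adjusted p of at most 0.118). That of Amt ended without BD replicate 3 (edgeR adjusted p = 0.0522), BD replicate 4 (0.0513) or HFD replicate 2 (0.0502). Dmgdh, dimethylglycine dehydrogenase, was lower in MCD than in BD (-0.49 ± 0.094, edgeR adjusted p = 0.00111). It was also the only one of the 24 called between MCD and HFD (-0.35, edgeR adjusted p = 0.0466), kept in 9 of 26 alternatives and ended without the same 11 libraries as the Shmt1 call (edgeR adjusted p of at most 0.156).

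The histidine breakdown genes upstream of Ftcd were lower with it. Hal, histidine ammonia-lyase, averaged 547 ± 48.7 CPM in BD and was lower in HFD at 212 ± 37.4 CPM (log2 change -1.37 ± 0.13, edgeR adjusted p = 1.53e-06). In MCD Hal was 174 ± 24.4 CPM (-1.65 ± 0.13, edgeR adjusted p = 1.15e-07). Amdhd1, the imidazolonepropionase, changed by -0.78 in HFD (edgeR adjusted p = 8.79e-05) and by -0.87 in MCD (2.38e-05). Uroc1, the urocanase, changed by -0.32 in HFD (edgeR adjusted p = 0.0312) and -0.51 in MCD (4.55e-04), and its HFD call was kept in 15 of 26 alternatives. That call ended without any 1 of BD replicates 1 to 4, HFD replicates 1, 3 and 5 or MCD replicate 5 (edgeR adjusted p of at most 0.105). All 4 genes of this route, Ftcd included, were thus called lower on both fat-rich diets.

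**Figure D4:**
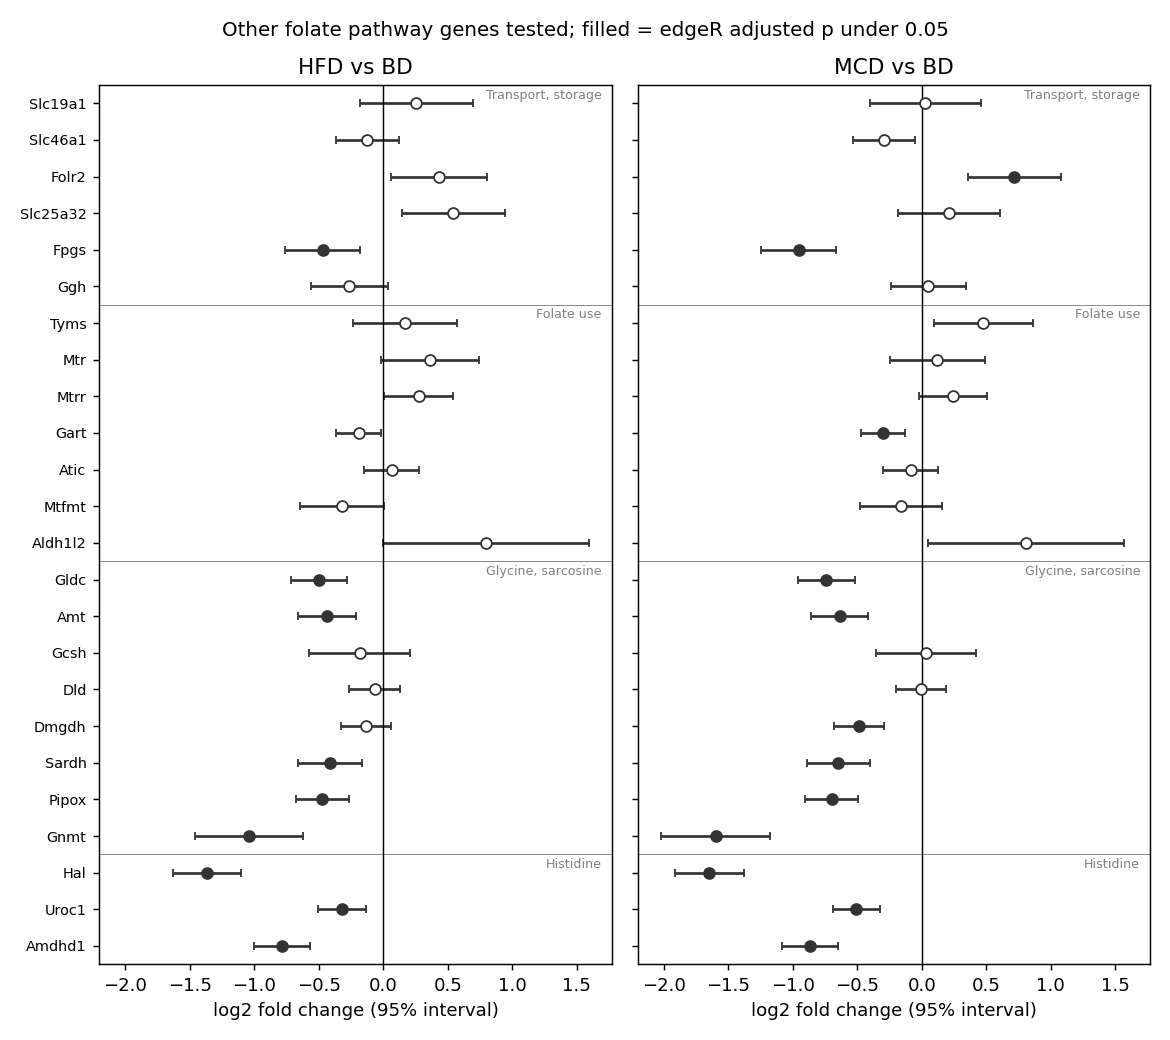
Log2 fold changes with 95% intervals of 24 other folate pathway genes tested, for HFD against BD and MCD against BD, grouped by role; filled points passed edgeR at adjusted p under 0.05. Hal has the lowest value in both panels (-1.37 and -1.65), and Folr2 is the only filled point above 0.

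Genes whose levels over the 15 libraries were most like those of Mthfd1l, the member with the largest range of diet means (1.61 on the log2 scale), were found by the root mean square log2 distance of centred profiles. They were Anxa2 (distance 0.46), Spp1 (0.47), Plod2 (0.50), Emb (0.53) and S100a11 (0.56). Their mean CPM in BD, HFD and MCD was 12.99, 28.1 and 60.7 for Anxa2, and 56.8, 89.1 and 155 for Spp1, which also stands in the cholangiocyte marker list. Plod2 had 1.02, 0.943 and 2.66 CPM, Emb 0.522, 0.510 and 1.31 CPM, and S100a11 1.98, 3.49 and 8.82 CPM. They were picked for likeness to Mthfd1l, so that their highest mean lies in MCD, as that of Mthfd1l does, follows from the choice.

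Known targets of ATF4, a factor of the amino acid response, and Atf4 itself were read beside the mitochondrial genes, since the targets include serine synthesis genes. Of these 9 genes tested, 1 was called higher and 1 lower in HFD and 2 higher and 0 lower in MCD against BD. Of all tested genes 3.65% were called higher and 3.27% lower in HFD, and 12.8% and 8.64% in MCD. Those higher were Psat1, a serine synthesis enzyme (log2 change 2.62 in HFD and 2.91 in MCD), and in MCD also Trib3 (1.21), while Atf4 itself was lower in HFD (-0.54). Clock genes also differed from BD in both fat-rich diets, with 9 of 14 called higher and 3 lower in HFD and 8 higher and 4 lower in MCD, and 0 between MCD and HFD. The hour of day at which tissue was taken is not given in the labels, and its part in the members' values was not tested.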

How the data were processed

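PolyA RNA of 15 liver libraries was analysed from whole-number counts per gene symbol, as the authors deposited them. The submitters' processing notes name HTSeq, TopHat2 (2.0.13), Trimmomatic and DESeq2 and the build GRCm38/mm10, and per the labels' protocols the kit keeps strand. How HTSeq treated strand and overlaps, and with which annotation, is not given in the sources used here, so reads of overlapping genes may not be told apart. Reads outside any gene (12.7% to 17.0% of gene, ambiguous and such reads together) and ambiguous or non-unique reads stayed out of library sizes and tests.

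Samples were grouped by the diet label, and replicate numbers follow deposit order and pair nothing. The 23420 genes were filtered with filterByExpr (minimum count 10, minimum total 15), scaled by TMM and fitted over all 15 libraries with edgeR's quasi-likelihood test (edgeR 4.0.16, R 4.3.3), two-sided, with Benjamini-Hochberg adjustment over the 12193 genes tested and calls at 0.05. Errors of log2 changes are SEs worked back from each log2 change and its quasi-likelihood F statistic. Intervals are 95% and use those SEs, and the common biological coefficient of variation was 0.176. CPM values are TMM scaled. Arm shifts used log2 CPM with a prior count of 2. Replicates of a diet differed by more than sampling noise in all 30 pairs (chi-square per degree of freedom 7.33 to 65.0). The fitting was tested on simulated data.

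The 8 members and all gene lists were chosen with earlier results of these data known. Named were the 8 members, every called gene of the other folate pathway list, and the 5 tested genes closest in profile to the member with the largest range of diet means. Of that pathway list 2 genes are not reported here and enter none of its counts. In the ATF4 list the genes were named after their values were seen. Lengths and positions are from GENCODE M21 and promoters from RefSeq (GRCm38.p6). Adgre1 and Ciart were matched under the older symbols Emr1 and Gm129, and Tf was not analysed here. Alternatives were DESeq2 (1.42.0) as test and as size factors, limma-voom (limma 3.58.1), no TMM, no and a stricter filter, only the diets compared, other fit settings and each library left out. Leaving out HFD replicate 2 and MCD replicate 3 together, an alignment covariate, thinned counts and the arm difference without Mthfd1l were chosen after seeing the data.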

Additional observations from a re-analysis of the deposited data

Results flagged for a closer look

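Mthfd1 in HFD replicate 2 was 211 CPM, apart from the other HFD libraries at 262 to 270 CPM. The gap was 0.865 of the range of the group, above Dixon's 95% critical value for 5 libraries. Of the 24 groups of 5 libraries tested (8 genes in 3 diets), 1 was singled out, and chance singles out about 1 in 20. Without this library Mthfd1 was still lower in HFD than in BD (log2 change -0.44, edgeR adjusted p = 0.0139).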

How the results depend on the processing

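Of 617 results of single members under other settings (24 differences under up to 26 settings), 560 kept direction and side of the threshold, 25 reversed, 23 lost a call and 9 gained one. The reversals were of differences near 0 or resting on HFD replicate 2, and none was a called difference. Shmt1 in HFD against BD turned to 0.0024 in DESeq2, 0.0017 with its size factors, 0.057 without TMM, 0.0018 without a filter, 0.0029 with a stricter filter and 0.072 without HFD replicate 2 and MCD replicate 3, and ran from -0.049 to 0.077 with each library left out. Mthfd1l in HFD against BD turned to -0.43 without HFD replicate 2 and MCD replicate 3, and ran from -0.42 to 1.04 with each library left out. Mthfs in MCD against HFD turned to 0.014 in limma-voom, 0.071 without TMM, 0.0055 without a filter, 0.013 with a stricter filter and 0.067 with the alignment covariate, and ran from -0.075 to 0.12 with each library left out. The cause was not tested.

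Between MCD and HFD, the 1 member called became 0 without TMM, without a filter, with a stricter filter, with only these diets fitted, with the covariate and in thinned counts, 3 without HFD replicate 2 and MCD replicate 3, and 0 to 2 with each library left out. The 1 other pathway gene called became 0 under the same 6 settings, 2 in DESeq2, 6 without those libraries and 0 to 3 with each library left out. Over all genes DESeq2 called 433 higher and 268 lower in MCD than in HFD. The 9 other pathway genes lower in HFD than in BD became 5 to 9 with each library left out, with 5 without BD replicate 3 or BD replicate 4. For settings other than DESeq2 and no TMM, calls over all genes are not given here. Counts under those settings are therefore no result about the listed genes. The arm difference of 1.46 in MCD against BD was 1.15 without Mthfd2, 1.11 without Mthfd1l and 2.02 with medians over members (1.37 to 1.56 with each library left out). That of 0.77 in MCD against HFD was 0.375 without Mthfd1l and 1.36 with medians (0.64 to 0.95 with each library left out).

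Without TMM the median over all genes moved by 0.065 in HFD and 0.142 in MCD against BD. Over all genes 589 were then higher and 297 lower in HFD (445 and 399 with TMM), and 2308 higher and 512 lower in MCD (1557 and 1053 with TMM). Between MCD and HFD they were 411 and 67 (271 and 113 with TMM). Mthfd1l could not be tested with the stricter filter or in thinned counts. Depth limits the scarce members: 3 libraries held 3 or fewer counts of Mthfd1l and 1 of Mthfd2. No paired analysis was possible because the replicate numbers only follow deposit order.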
